A study of Carica papaya with 7 samples.

Results

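Rubisco and the Calvin cycle were followed through 4 probe sets of the Affymetrix ATH1 GeneChip, out of 22746 that are no controls. They were chosen by gene identity, with earlier results of these data known. The plastid gene rbcL encodes the large subunit of Rubisco (245015_at, its only probe set in the block of probe set numbers that holds the plastid genes). Beside it stand the nuclear genes RCA (Rubisco activase, 245061_at), PRK (phosphoribulokinase, 255720_at) and SBPASE (sedoheptulose-1,7-bisphosphatase, 251762_at). Pulp RNA of 'Golden' papaya was hybridized at 2 stages, ripe and unripe, to an array whose probes were made for Arabidopsis. Each sample pooled 12 fruits without peel and seeds, harvested at colour break, some 150 days after anthesis. No treatment is named for either stage, and by the study's methods the first replicate of each came from an earlier year than the others. Signals of a genomic DNA array of the same cultivar were not analysed here.

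The Calvin cycle fixes CO2 in the chloroplast stroma. Rubisco joins CO2 to ribulose-1,5-bisphosphate, and the product is reduced to sugar phosphates from which the acceptor is made again. Rubisco is built of large subunits encoded in the plastid and small subunits encoded in the nucleus, and the activase frees its active sites of bound inhibitory sugar phosphates. SBPASE acts in the regeneration part of the cycle and PRK completes it by making the acceptor; both are known from plants to be switched on by light through thioredoxin. Green fruit carries chloroplasts, which turn into chromoplasts as a fruit such as papaya ripens.

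The table has 3 ripe and 3 unripe columns, but these are not independent. In each stage column 2 was column 1 times 1.19, and column 3 was the mean of both, within a tolerance of 0.0011 in the signal. They were counted as 1 set of values per stage, so that no difference below has an SD, a replicate check or a p-value. Leaving out 1 column moves the differences of all probe sets alike and bears on none of them, and an effect of the harvest year cannot be seen. Signals are RMA values on a linear scale, in arbitrary units, and a difference is the mean log2 signal of ripe minus that of unripe pulp. The median signal was 4.2 in both ripe and unripe pulp. As a measure of background served 27 control probe sets for Bacillus subtilis genes, which match no plant gene. The brightest of them had a mean signal of 7.91 in ripe and 8.22 in unripe pulp, and their differences spanned -0.28 to 0.12 on the log2 scale. Their median signal was far lower, in column 3 at 3.04 in ripe and 3.13 in unripe pulp. Of all probe sets, 11.1% were above the brightest control in at least 1 stage.

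rbcL was the one member with a higher signal in ripe pulp by over 25% in the values as deposited. The signals were 9.93, 11.8 and 10.9 in the ripe columns and 7.45, 8.87 and 8.16 in the unripe columns. All ripe columns were above all unripe ones, which follows for any probe set with a large enough ratio, since columns of a stage are multiples of each other. The mean signals of 10.8 in ripe and 8.14 in unripe pulp gave a log2 difference of 0.41, or 1.33 fold, and ripe over unripe at each column number gave the same 0.41. This lay outside the range of the bacterial controls, and 308 of the 22746 probe sets (1.35%) had a larger difference, or 634 (2.79%) in either direction. In ripe pulp rbcL was brighter than all 27 bacterial controls, at 1.37 times the brightest. In unripe pulp 1 control was brighter, and rbcL stood at 0.99 times that control. The unripe signal was therefore not above the background measured this way.

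RCA was nearly equal in both stages as deposited. Its signals were 7.01, 8.35 and 7.68 in the ripe columns, against 6.80, 8.09 and 7.44 in the unripe columns. The columns of both stages overlapped, and the log2 difference was 0.046, a ratio of 1.03. Of all probe sets 36.7% had a higher difference, and 76.4% one that was larger in either direction. RCA was brighter than all but 1 of the bacterial controls in every column, and below that control in ripe as in unripe pulp.

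PRK was dim in both stages, with 3.20, 3.81 and 3.50 in ripe pulp and 2.93, 3.49 and 3.21 in unripe pulp. The groups overlapped, and the log2 difference was 0.13. It is slightly above the highest difference of a bacterial control, and 20.9% of all probe sets had a higher one, or 43.9% a larger one in either direction. In ripe pulp 71.9% of all probe sets were brighter than PRK and in unripe pulp 82.5%. Of the bacterial controls, 6 were brighter in ripe and 11 in unripe pulp, so that the signal of PRK lies among those of probe sets without a target.

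SBPASE had 3.66, 4.35 and 4.01 in the ripe columns and 3.71, 4.42 and 4.07 in the unripe columns. These values overlapped almost fully, and the log2 difference was -0.021. The brightest bacterial control had about double the signal of SBPASE, which reached 0.50 times that control in ripe and 0.49 times in unripe pulp. In either direction 88.2% of all probe sets had a larger difference. Scaled to the cre control the difference of SBPASE was 0.031, and no direction is given for this gene.

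**Figure D1:**
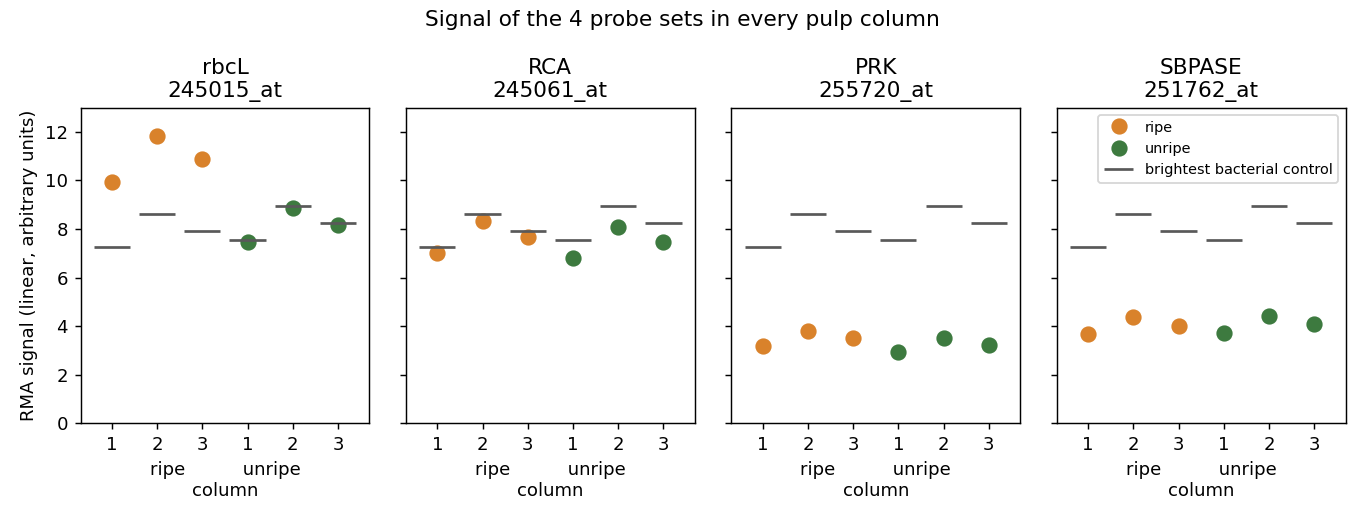
RMA signal (linear, arbitrary units) of rbcL, RCA, PRK and SBPASE in each ripe and unripe column; each point is 1 column, and the grey line is the brightest Bacillus subtilis control of that column. Only rbcL in ripe pulp, at 9.93 to 11.8, stands clear of the controls; columns of a stage are multiples of each other, so their scatter is no replicate error.

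Across the 4 members as deposited, 1 was thus over 25% brighter in ripe pulp and 0 were over 25% brighter in unripe pulp. Over all probe sets 3.57% were higher and 3.53% lower in ripe pulp by that ratio, the brighter stage having over 25% more signal. Among those above the brightest bacterial control in at least 1 stage, as rbcL was, 9.30% were higher by that ratio. Scaling to the bioB, bioC and bioD hybridization controls moves the differences of all probe sets up alike. The differences were then 1.02 for rbcL, 0.65 for RCA, 0.73 for PRK and 0.58 for SBPASE, and all 4 passed 25%. The difference of rbcL exceeded the mean of the 3 nuclear genes (0.050) by 0.37 on the log2 scale. The gap was 0.29 to PRK and 0.44 to SBPASE. Any constant scaling of a column cancels in these gaps, but each was measured on 1 set of values per stage. The nuclear side of them rests on signals below the brightest bacterial control. In pulp RNA, a change in the number of cells of a type and a change in RNA per cell cannot be told apart.

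**Figure D2:**
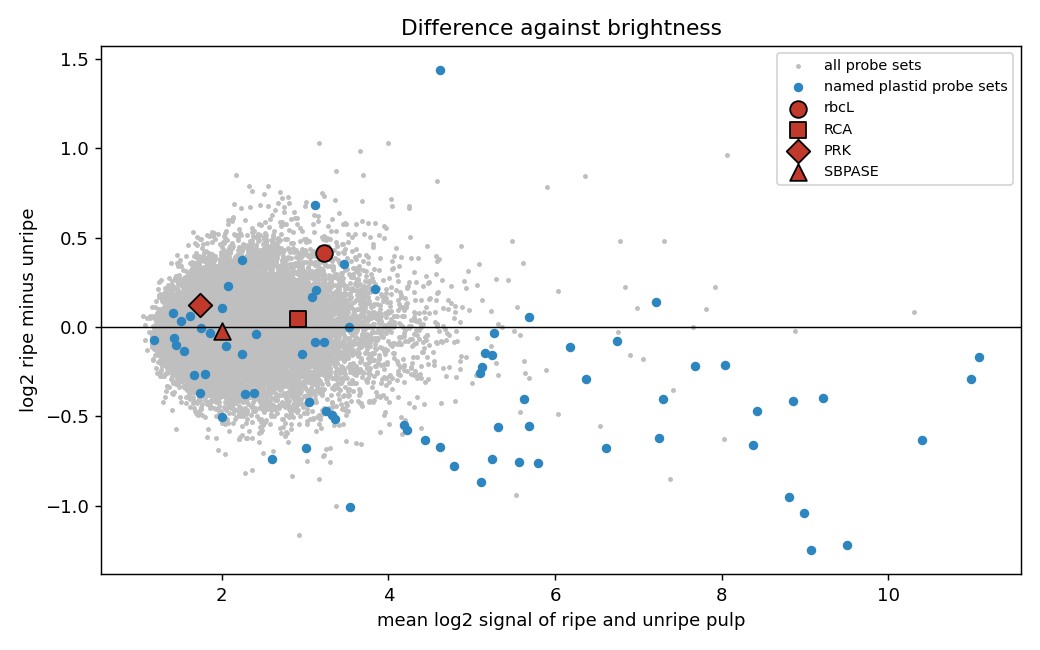
Log2 ripe minus unripe signal (vertical axis) against the mean log2 signal of ripe and unripe pulp (horizontal axis) for all 22746 probe sets (grey), named plastid probe sets (blue) and the 4 members (red). rbcL, at 0.41, lies at the upper edge of the dim cloud, RCA, PRK and SBPASE lie within it, and most bright plastid probe sets lie below 0 as deposited. All points move up alike once columns are scaled to bioB, bioC and bioD, and far less when scaled to cre.

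As deposited, most plastid genes had the opposite direction to rbcL. In the range of numbers that holds rbcL, 77 probe sets carry the symbol of a protein-coding gene of the papaya plastid genome. Of these, 61 had a lower and 16 a higher signal in ripe pulp, and the median log2 difference was -0.26, against -0.0047 over all probe sets. Scaled to the bioB, bioC and bioD hybridization controls, whose median difference was -0.60, only 18 of the 77 would be lower. Scaled to the cre control, whose median difference was -0.053, 57 would be lower. The split thus depends on which controls are used for scaling, while the order of the differences does not. By that ratio of over 25%, 35 were lower and 5 higher as deposited. Over all probe sets 3.53% were lower and 3.57% higher, and 9.30% were higher among those above the brightest bacterial control in at least 1 stage. The 5 higher plastid probe sets were ndhB of the plastid NDH complex (1.44), psbB of photosystem II (0.68), rbcL (0.41), the ribosomal protein gene rps14 (0.37) and accD (0.35). accD encodes a subunit of acetyl-CoA carboxylase. rbcL thus ranked 3 of 77 by difference, and 6 of all 119 probe sets in the range, which also holds mitochondrial and nuclear ones. Set against the median of the plastid genes, rbcL was higher by 0.68.

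In the values as deposited, differences were larger in the brighter plastid probe sets, and most were lower in ripe pulp among bright and dim ones. Of the 48 plastid probe sets above the bacterial controls in both stages, 42 were lower in ripe pulp, with a median of -0.44. The 23 that were above them in neither stage had a median of -0.10, with 17 lower. Scaled to bioB, bioC and bioD, whose median difference was -0.60, both medians would lie above 0, the dim one farther from it. Only 18 of the 77 would then be lower. rbcL belongs to the 6 that were above in 1 stage only, where the stage that passed largely fixes the direction. By signal it ranked 44 of 77 in ripe and 52 of 77 in unripe pulp. Such a rank does not order transcript amounts, because each Arabidopsis probe set binds its papaya target with a strength of its own. The part of dim signal in the difference of rbcL was not tested.

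The neighbours of rbcL on the plastid genome shared its direction as deposited on one side only, apart from psaI, which gave none. In the papaya plastid genome (RefSeq assembly ASM5485532v1, used here for gene order alone) rbcL is followed by accD, psaI, ycf4, cemA and petA. As deposited, all 6 had a signal at least as high in ripe as in unripe pulp, at a median log2 difference of 0.17. The values for accD were 12.4 in ripe and 9.74 in unripe pulp. For psaI, a small photosystem I subunit, they were 11.6 and 11.5, a difference of 0.0019, too small to give a direction. ycf4, needed for photosystem I assembly, was the only bright gene of the run, with 156 in ripe and 142 in unripe pulp (0.14). The envelope protein gene cemA had 9.39 in ripe and 8.14 in unripe pulp (0.21). petA, which encodes cytochrome f, was at 4.17 in ripe and 3.87 in unripe pulp (0.11), below the brightest bacterial control in both stages. Its difference lay within the range of the bacterial controls. With psaI counted as higher, no other run of adjacent named plastid genes higher in ripe pulp as deposited had more than 2 members. This depends on the scaling. Scaled to bioB, bioC and bioD, all named genes from petL to rpoA would be higher in ripe pulp, which is a longer run.

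On both sides of this run the signals as deposited were lower in ripe pulp. The 5 genes before rbcL, from ndhJ to atpB, had differences from -1.04 to -0.56. atpB, the gene next to rbcL, which in land plants is transcribed from the opposite strand, had 322 in ripe and 623 in unripe pulp (-0.95). The 5 genes after petA, from psbJ to petL, had differences from -0.87 to -0.16. psbJ, which follows petA, had 25.6 in ripe and 46.7 in unripe pulp (-0.87). These groups of neighbours were described after their values had been seen, and the pattern has no replicate. Once columns were scaled to bioB, bioC and bioD, 6 of these 10 flanking genes would be lower in ripe pulp, and all 10 when scaled to cre.

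**Figure D3:**
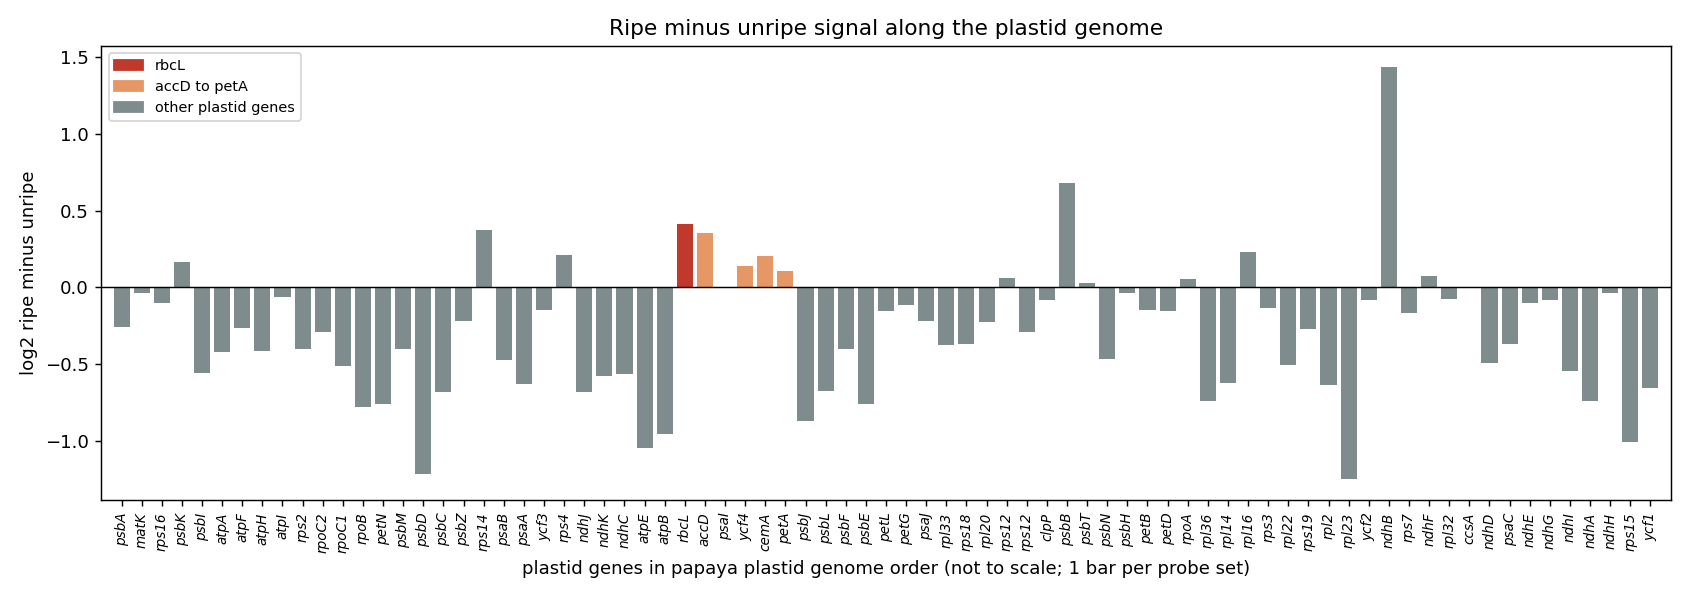
Log2 ripe minus unripe signal of the 77 named plastid probe sets (1 bar each), in the order of the genes on the papaya plastid genome. The run from rbcL (red, 0.41) to petA (orange, 0.11) lies at or above 0, between the lower signals of ndhJ to atpB and of psbJ to petL, of which 6 of 10 stay lower when scaled to bioB, bioC and bioD.

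Of the other Rubisco and Calvin cycle genes only a part could be set beside the members. Lists of subunits, assembly factors, cycle enzymes and their regulators hold 36 entries, the 4 members included, and 10 of these were matched to a named probe set. No small subunit gene (RBCS) was matched, so rbcL has no counterpart from the same complex here. In ripe pulp 6 of the 10 were higher and 4 lower, with a median log2 difference of 0.050, while 48.4% of all probe sets were higher. Apart from rbcL none passed a ratio of 25% in either direction as deposited. Roles given below are those known in Arabidopsis.

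Around Rubisco itself the differences as deposited were small and went both ways. Cpn60beta2, a chaperonin subunit that folds newly made large subunits, had 7.21 in ripe and 6.54 in unripe pulp, a log2 difference of 0.14. The assembly factor gene RAF2 (AT5G51110) was at -0.13, with 5.54 in ripe and 6.06 in unripe pulp. The chaperone gene BSD2 (AT3G47650) was at 0.054, with 5.41 in ripe and 5.21 in unripe pulp. With RCA, all 4 probe sets of this group were below the brightest bacterial control in both stages.

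Among the cycle enzymes, plastid phosphoglycerate kinase (AT1G56190), which starts the reduction of the Rubisco product, was the one with a signal above the controls in both stages. It had 8.93 in ripe and 10.4 in unripe pulp, a difference of -0.23, opposite in sign to rbcL and within the range of the bacterial controls. Of the regulators, thioredoxin f2 (TRXF2), which activates SBPASE and PRK in the light, was at 0.19 and the catalytic subunit of ferredoxin-thioredoxin reductase (AT2G04700) at -0.15. Both were dim, with 3.85 in ripe and 3.39 in unripe pulp for TRXF2 and 3.60 in ripe and 3.99 in unripe pulp for AT2G04700.

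Photorespiration recovers carbon after Rubisco has taken up oxygen in place of CO2. Of its 17 listed genes 5 were matched, and 4 had higher signals in ripe pulp, at a median log2 difference of 0.11. Glycerate kinase (GLYK, AT1G80380), which returns the recovered carbon to the Calvin cycle, had the largest difference, 0.38, with 3.97 in ripe and 3.04 in unripe pulp. It is among the dimmest probe sets of the list, and it was the only further one past 25%. The T protein gene of glycine decarboxylase (AT1G11860) was at 0.11, hydroxypyruvate reductase (HPR) at 0.086 and the H protein gene AT2G35120 at 0.14. The second H protein gene, AT1G32470, was the only one above the controls, with 11.0 in ripe and 12.0 in unripe pulp (-0.12).

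As markers of green tissue served 17 antenna genes of both photosystems, of which 2 were matched, both of the photosystem II antenna. LHCB4.1 had 3.84 in ripe and 4.74 in unripe pulp, a difference of -0.30, and LHCB4.2 had 5.13 in ripe and 5.53 in unripe pulp, one of -0.11. They were below the brightest bacterial control in both stages, and the chloroplast content of the pulp cannot be read from 2 such signals. Of 5 seed and 5 peel epidermis markers none was matched to a named probe set, and a part of such tissue in the result was not tested. Over all 17 matched probe sets of these lists, 10 were higher and 7 lower, and 2 passed 25% upwards and 0 downwards. In both stages 14 were below the brightest bacterial control. Over all probe sets the shares past 25% were 3.57% upwards and 3.53% downwards. Scaled to bioB, bioC and bioD, all 17 were higher and 16 passed 25%, while scaled to cre 11 were higher and 2 passed 25%.

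**Figure D4:**
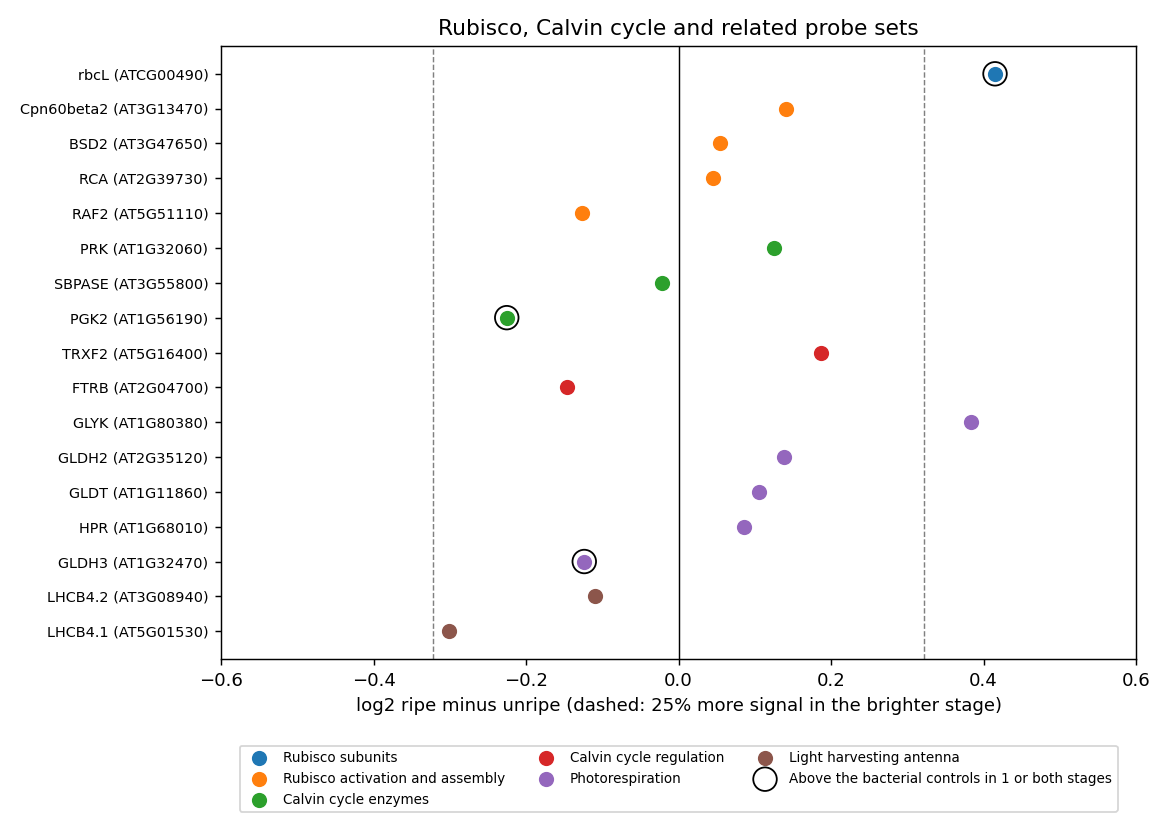
Log2 ripe minus unripe signal of the 17 matched probe sets, grouped by list (colours), with rings around those above the brightest bacterial control in 1 or both stages and dashed lines where the brighter stage has 25% more signal. Only rbcL (0.41) and the dim GLYK (0.38) lie past the dashed lines, and the ringed probe sets other than rbcL lie below 0.

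The probe sets whose pair of signals was nearest to that of rbcL, by Euclidean distance over the 2 stages on the log2 scale, were AT2G47570 (0.015), AT5G66240 (0.045) and BZIP60 (0.045). Within a distance of 0.1 there were 15 of 13522 probe sets with 1 gene symbol. For RCA there were 154, led by AT2G18720, for PRK 624, led by XTH29, and for SBPASE 789, led by AT1G21440. With 2 values per probe set this is a likeness in brightness and ratio and no more.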

How the data were processed

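cRNA of papaya pulp was hybridized to the ATH1 array. The authors deposited linear RMA intensities from GeneSpring, summarized from the scanner output of MAS 5.0. By the methods, arrays were filtered in GeneSpring with a mask from genomic DNA, and the series names a normalization against it. The table lists 22810 probe sets, more than the masked set of the study, and what was masked in its values is not stated. The DNA array had no values in the data used here, so that the planned ratios of pulp to DNA could not be made.

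The titles gave each sample its stage. Columns of a stage proved proportional, which left no spread for the planned linear model, and no test was run. Signals were set to at least 1 and log2 transformed. The 64 control probe sets were left out, and probe sets were named from GEO's platform annotation where it gives 1 symbol (13523). The members and gene lists were chosen with earlier results of these data known; the lists hold 80 entries, matched by gene identifier or symbol, and some assembly genes are not reported here. Named were all members, all matched list genes, the 3 nearest probe sets of rbcL with the first for the others, and plastid neighbours added after seeing values. Counts past 25% are descriptive. The fold count was tested on simulated data, the unripe values with folds planted and no noise added. That outcome was fixed in advance, so it checks the calculation alone and not the counts. Alternatives were other scalings, 16 added before log2, filters, 1.5 fold and leaving out columns. With 1 set of values per stage, precision was not measured. Python 3.11.15, numpy 2.4.6, pandas 2.3.3 and matplotlib 3.10.9 were used.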

Additional observations from a re-analysis of the deposited data

How the results depend on the processing

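The log2 difference of rbcL was positive under every alternative run: it was 1.02 when scaled to bioB, bioC and bioD, 0.15 with 16 added before log2, 0.68 relative to the plastid median (added after seeing the data). With 1 column left out it was 0.35 to 0.48, a range set for every probe set by the factor between columns, which says nothing of stability. Its gap to the nuclear genes was 0.14 with 16 added and 0.37 without any column. RCA was at 0.65 when scaled to bioB, bioC and bioD, 0.31 relative to the plastid median and -0.018 to 0.11 when 1 column was left out (-0.016 without ripe replicate 2, -0.018 without unripe replicate 1). PRK was at 0.73, 0.39 and 0.061 to 0.19 under the same settings. SBPASE, below 0 as deposited, was at 0.58, 0.24 and -0.085 to 0.042 (0.042 without ripe replicate 1, 0.041 without unripe replicate 2), and at 0.031 when scaled to cre. Of the 17 list probe sets, 17 were higher and 16 past 25% when scaled to bioB, bioC and bioD, with a median of 0.66. When scaled to cre, 11 were higher and 2 past 25%, with a median of 0.11. With a filter at the brightest bacterial control 3 remained, 1 of them higher and past 25% (rbcL, which passes through ripe pulp alone), with a median of -0.12. A filter at the median signal left 1 past 25% and 1.5 fold left 0. Without 1 column 8 to 11 were higher, 1 to 2 past 25% upwards and 0 to 1 downwards, and the median was -0.0095 to 0.12 (-0.0077 without ripe replicate 2). rbcL ranked 3 in place of 6 among the named plastid probe sets and 3 among those above the controls, as fewer were compared. With the replicate number as a block the differences were 0.41, 0.046, 0.13 and -0.021 for rbcL, RCA, PRK and SBPASE, since columns of equal number differ by the same ratio; whether the numbers pair the samples could not be tested. Under quantile normalization the members' differences were 0.42, 0.041, 0.13 and -0.021 in that order, and 51 in place of 61 named plastid probe sets were lower. Alternatives with the DNA array were not run.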
